A study of Homo sapiens with 24 samples.

Results

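The untreated libraries of A375, a cell line from a human melanoma, were compared with the untreated libraries of 3 other human cancer lines that express TP63. The libraries that enter were taken by line and treatment from their labels, the 3 untreated libraries of A375 against the 9 untreated libraries of Cal27, Fadu and Hth83, so that 12 of the 24 libraries of the series were used and the 12 plasma-treated libraries were not. A375 (3 untreated libraries) was set against Cal27 (3 untreated libraries, a tongue squamous carcinoma line), Fadu (3 untreated libraries, a squamous carcinoma line of the hypopharynx) and Hth83 (3 untreated libraries, a line known under this name as anaplastic thyroid cancer). The labels give all of them 0 s of cold atmospheric plasma and the genotype WT, and class all 4 lines as head and neck cancer cells. Cells were seeded overnight in 6-well plates, in DMEM for A375, Cal27 and Hth83 and in MEM for Fadu. RNA was total RNA prepared with an mRNA-Seq kit. The series asks whether plasma makes head and neck tumours more sensitive to chemotherapy and to checkpoint inhibitors, and the comparison here describes how far apart its lines stood before any plasma.

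Melanocytes arise from the neural crest, a migratory cell population of the embryo that leaves the epithelium of the neural tube, loses E-cadherin and switches on SOX10, PAX3 and MITF, the transcription factors that lead to pigment cell identity. Squamous epithelium of the mouth and throat is built under TP63, which maintains basal keratins, desmosomes that join cells, and hemidesmosomes that fix basal cells to laminin in the basement membrane. Melanoma cells can keep the neural crest factors while losing the pigment genes, and the A375 line, which carries an activating BRAF mutation, is widely used as a weakly pigmented melanoma model.

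A pair of microRNA families bears on this contrast, and their mature sequences are shown because the host transcript of the first was among the transcripts furthest below the other lines in A375, and because ZEB1 and ZEB2, which were higher in A375, are textbook targets of both families. The seed, bases 2 to 8, is in capitals, the sequences are RefSeq's on GRCh38.p14, and the microRNAs themselves were not measured in these libraries. The miR-205 sequence lies at chr1:209432166-209432187 on the plus strand within MIR205HG, and the other pair lies at chr12:6963742-6963764 and chr12:6964155-6964176 on the plus strand within MIR200CHG.
hsa-miR-205-5p: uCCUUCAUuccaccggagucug
hsa-miR-200c-3p: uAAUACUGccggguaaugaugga
hsa-miR-141-3p: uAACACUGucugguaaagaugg
The seeds of miR-200c and miR-141 differ from each other and from that of miR-205. MIR205HG, the long non-coding host of miR-205, had 0 CPM in all 3 A375 libraries, against 266, 276 and 271 CPM in Cal27, 141, 150.1 and 145 CPM in Fadu and 360.2, 343 and 358 CPM in Hth83. No read was assigned to it in A375, so that its mean over the 3 other lines was at least 10998-fold higher than in A375, with 3 counts over the A375 libraries as the floor. MIR200CHG, the host of miR-200c and miR-141, had 0 CPM in all 3 A375 libraries, against 0.251, 0.521 and 0.365 CPM in Cal27, 0.801, 0.747 and 1.07 CPM in Fadu and 0 CPM in all 3 Hth83 libraries. It was found at low levels in the squamous lines, and it was listed at 0 in Hth83 as well as in A375.

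The promoter of TYR, the tyrosinase gene whose enzyme starts melanin synthesis, is shown because MITF, which binds CATGTG and related boxes in it, was higher in A375 while TYR was near 0. The window runs from 250 bases before to 50 bases after the start on GRCh38.p14, chr11:89177625-89177924 on the plus strand, with CATGTG in capitals.
TYR promoter: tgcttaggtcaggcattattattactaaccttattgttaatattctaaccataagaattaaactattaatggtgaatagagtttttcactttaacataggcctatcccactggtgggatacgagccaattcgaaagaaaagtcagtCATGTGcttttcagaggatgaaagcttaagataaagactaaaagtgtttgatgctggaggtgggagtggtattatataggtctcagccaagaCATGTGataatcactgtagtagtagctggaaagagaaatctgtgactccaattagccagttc
The 2 matches begin 104 and 12 bases before the start. CATGTG, searched on both strands, was present in 11.1% of the 34943 promoter windows of the same length and in a window of 13 of the 22 melanosome and pigment genes that have one, against 13.4% of all 27167 genes with a window. A match is a string of letters and not evidence that MITF binds there in these cells.

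Total counts were 29.3 to 49.5 M in the A375 libraries, 27.9 to 30.1 M in Cal27, 30.7 to 37.5 M in Fadu and 29.8 to 37.9 M in Hth83. Levels are given in CPM, counts scaled to an equal library total, and they are compared between lines for the same gene or the same list. Levels of different genes are set side by side only as parts of a list sum. Such a sum leans on the members with the most counts, whatever their length. A mean is given ± its SD over the 3 libraries of the line (n = 3). A log2 difference is given ± an approximate SE, its size over the square root of edgeR's quasi-likelihood F. Where a line had only a few reads, this SE understates the counting error. The 3 libraries of each line differed by more than counting error. The labels do not say whether they came from separate cultures, so that p-values reflect just the scatter of libraries within a line, which may be technical. The marker lists checked the labels. The 18 melanocyte markers summed to 2444 to 2480 CPM in the A375 libraries, against 49.1 to 50.4 in Cal27, 103 to 105 in Fadu and 9.73 to 11.5 in Hth83. SOX10 made up a large part of the A375 sum. In A375 9 of the 18 passed 10 CPM, against 1 in Cal27, 2 in Fadu and 0 in Hth83. PMEL, also in this list, was at least 2-fold below Cal27 and Fadu in A375. The 18 squamous markers summed to 57.5 to 60 CPM in A375, against 6279 to 6545 in Cal27, 11993 to 12348 in Fadu and 9129 to 9545 in Hth83. Most thyroid markers were near 0 in Hth83. The 16 thyroid follicle markers summed to 21.9 to 24.9 CPM in A375, against 51 to 55.5 in Cal27, 57.9 to 66.3 in Fadu and 131 to 135 in Hth83, where PAX8 alone had 126, 127 and 125 CPM, and thyroglobulin (TG) averaged 0.04 ± 0.0353 CPM and the iodide symporter (SLC5A5) 0.0183 ± 0.0317 CPM. Hth83 is therefore called by its label only, without a tissue.

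The comparison asked which genes were higher or lower in A375 than in the 3 other lines together, with each line given equal weight, and which of them stood apart from each line. With edgeR's quasi-likelihood test, 17027 of the 21975 genes tested (77.5%) had a Benjamini-Hochberg adjusted p under 0.05 for A375 minus the mean of the 3 lines, 9621 (43.8%) with a positive and 7406 (33.7%) with a negative difference. Since a mean can be carried by 1 line, "higher" and "lower" are used below only for a gene that passed this test and also differed from Cal27, from Fadu and from Hth83 separately, in the same direction, by at least 2-fold and with an adjusted p under 0.05 each. By this rule 3148 genes (14.3%) were higher and 1351 (6.15%) were lower in A375, so that 70.0% of the 4499 such genes were higher. The 14.3% and 6.15% are the shares to hold beside those of every list below. That share was 83.4%, 78.1% and 84.6% with limma on log2 TPM (pseudocounts of 1, of 0.1, and of 1 without a filter). Leaving out a line removes 1 of the 3 pairwise conditions, and both counts then rose. The lower count was 1931 without Cal27, 1921 without Fadu and 2546 without Hth83. The higher count was 3761, 3927 and 4036 in the same order. The median difference over all genes tested was 0.12 on the log2 scale, and 0.31 when only library size was used for scaling.

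The same rule applied to each other line against the remaining 3 gave 2843 genes (12.9%) for Cal27, 2534 (11.5%) for Fadu and 2666 (12.1%) for Hth83, against 20.5% for A375. Pair by pair, A375 was at least 2-fold higher than Cal27 at 30.2% of the genes tested and lower at 20.5%. Against Fadu the shares were 26.6% and 21.3%, and against Hth83 26.6% and 16.8%. Differences of at least 2-fold reached 50.7% of genes between A375 and Cal27, 47.9% between A375 and Fadu and 43.4% between A375 and Hth83, while the pairs among the other 3 lines lay between 41.3% and 42%. A375 is 1 line, so that its lineage, its own history and its separate table cannot be told apart. With each line as 1 sample, edgeR called 0 genes and 2073 had an unadjusted p under 0.05, and limma called 0 genes with 2545 at that unadjusted p. The biological coefficient of variation in the edgeR fit was 4.93% over the libraries of a line and 91.7% over the 3 lines as samples.

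The 12 genes furthest above the other lines in A375, among those with at least 50 CPM, included neural crest factors, matrix genes and the cancer-testis gene PAGE5. TFAP2B, an AP-2 transcription factor of the neural crest at chr6:50818723-50847613, plus strand, had 706, 709 and 703 CPM in the A375 libraries, against 0 CPM in all 9 other libraries. It was silent in all 9 libraries of the other lines, and A375 was at least 60615-fold higher, with 3 counts over those 9 libraries as the floor. In bulk RNA, fewer cells with a transcript and less of it per cell cannot be told apart. HAPLN1, which links hyaluronan to proteoglycans, had 564, 538 and 596 CPM in the A375 libraries, against 0 CPM in all 9 other libraries, at least 48471-fold higher in A375. MEOX2, a homeobox factor of mesoderm, averaged 212 ± 4.01 CPM in A375, with no read in the other lines, at least 18235-fold higher. Also without a read outside A375 were NLGN4X, a neuroligin of synapses (109 ± 1.51 CPM in A375), and SOD3, the extracellular superoxide dismutase (69 ± 1.36 CPM). ACAN, the cartilage proteoglycan aggrecan, averaged 104 ± 7.12 CPM in A375, against 2 reads over the 9 other libraries, a ratio of 13166 with a 95% counting interval of 3645 to 108720. The long non-coding RNAs LINC01419 (323 ± 17.5 CPM in A375) and LINC01029 (254 ± 3.79 CPM) completed the upper end with SOX10, CDH19, S100B and PAGE5, described under their groups.

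The 12 genes furthest below were taken among those with at least 50 CPM in each of the other lines. They included MIR205HG, described above, genes known from keratinocytes, such as SFN, and genes of other kinds, such as BASP1. SPINT2, a membrane inhibitor of serine proteases at chr19:38244035-38292614, plus strand, had 0 CPM in all 3 A375 libraries, against 309.5, 321 and 292 CPM in Cal27, 199.5, 187 and 185 CPM in Fadu and 84.8, 87.3 and 86.4 CPM in Hth83. No A375 library held a read of it, and the mean of the other lines was at least 8267-fold higher. FAM83A, an adaptor of EGFR signalling, had 0 CPM in all 3 A375 libraries, against 58.2, 54.6 and 54.1 CPM in Cal27, 299.9, 306 and 309.9 CPM in Fadu and 129, 127 and 133 CPM in Hth83. BASP1, a membrane-bound protein known from nerve growth cones, had 0 CPM in all 3 A375 libraries, against 182, 192 and 184 CPM in Cal27, 265, 262 and 259.9 CPM in Fadu and 95.4, 101 and 86.5 CPM in Hth83. CCND2, the cell cycle protein cyclin D2, had 0 CPM in all 3 A375 libraries, against 189.9, 189 and 204 CPM in Cal27, 52.7, 59.1 and 54.1 CPM in Fadu and 63.6, 66.9 and 67 CPM in Hth83. All 3 were thus at 0 in A375 and expressed in every library of the other lines. SFN, the 14-3-3 sigma protein of stratified epithelium, had 0.0404, 0.312 and 0.136 CPM in the A375 libraries, against 466, 495 and 449 CPM in Cal27, 265, 250.1 and 259 CPM in Fadu and 365, 345 and 356 CPM in Hth83, a mean log2 difference of -11.40 ± 0.10. ANXA3, an annexin, averaged 0.0269 ± 0.0466 CPM in A375, against 274 ± 14.7 in Cal27, 86.9 ± 1.7 in Fadu and 193 ± 5.08 in Hth83. LCN2, the iron-binding protein lipocalin 2, averaged 0.166 ± 0.105 CPM in A375, against 1046 ± 26.8 in Cal27, 207 ± 1.84 in Fadu and 391 ± 41.1 in Hth83.

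**Figure D1:**
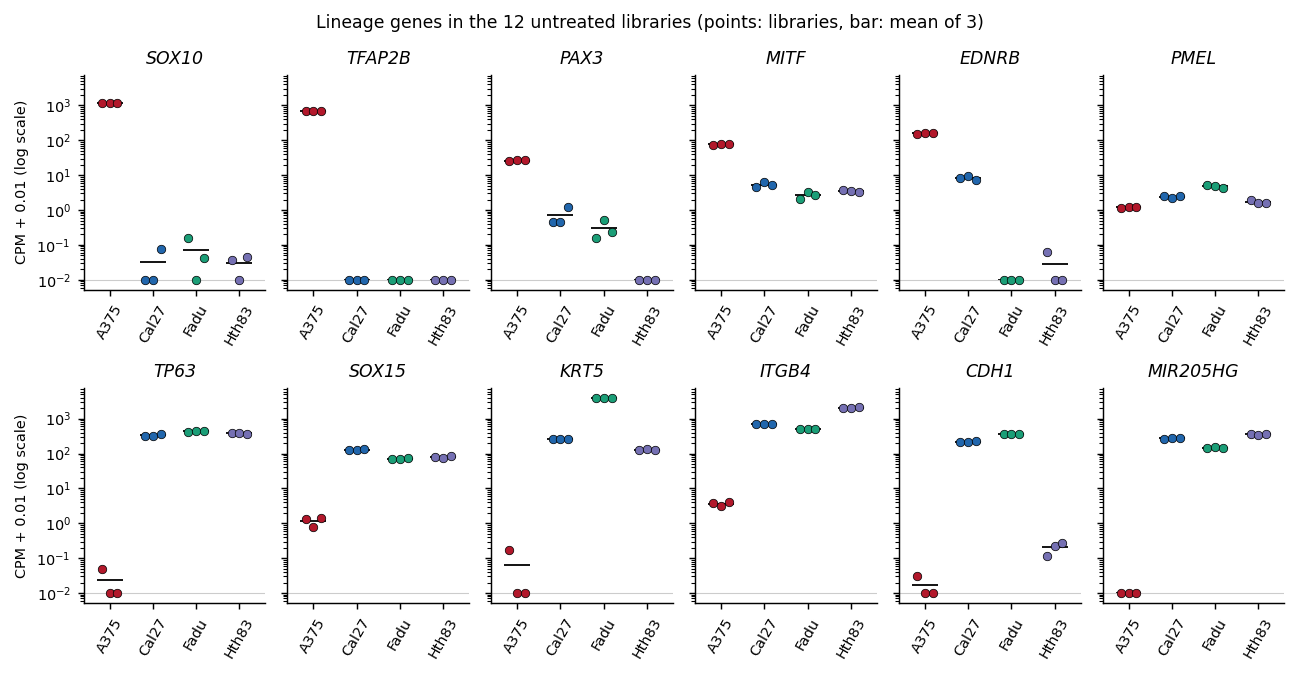
CPM plus 0.01 on a log scale for 12 lineage genes in the untreated libraries of A375, Cal27, Fadu and Hth83, with 1 point per library and a bar at the mean of the line. SOX10, TFAP2B, PAX3, MITF and EDNRB lie above all other lines in A375 and TP63, SOX15, KRT5, ITGB4, CDH1 and MIR205HG lie below them, while PMEL lies lowest in A375.

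Most transcription factors of the neural crest and of melanocytes were higher in A375. Of 36 factors 35 were tested, 23 (65.7%) were higher and 3 (8.57%) were lower, with a median log2 difference of 3.72 against 0.12 over all genes. SOX10, which holds neural crest cells in the glial and pigment lineages (chr22:37970686-37987422, minus strand), had 1138, 1151 and 1152 CPM in the A375 libraries, against 0, 0 and 0.0664 CPM in Cal27, 0.148, 0 and 0.0326 CPM in Fadu and 0.0264, 0 and 0.0335 CPM in Hth83. No library of the other lines passed 0.148 CPM. Its smallest pairwise log2 difference, with Fadu, was 14.07 ± 0.10, and edgeR's quasi-likelihood test gave that pair an adjusted p of 1.1e-47. SOX5, a SOX factor that works beside SOX10 in melanocytes, averaged 726 ± 13.6 CPM in A375, against 0.104 ± 0.0599 in Cal27, 0.112 ± 0.0733 in Fadu and 0.465 ± 0.174 in Hth83, a mean log2 difference of 11.82 ± 0.06. PAX3, which activates MITF, had 25.5, 26.3 and 26.4 CPM in the A375 libraries, against 0.43, 0.452 and 1.19 CPM in Cal27, 0.148, 0.507 and 0.228 CPM in Fadu and 0 CPM in all 3 Hth83 libraries. MITF, the regulator of pigment genes, had 71.7, 78.7 and 78.7 CPM in the A375 libraries, against 4.52, 6.26 and 5.14 CPM in Cal27, 2.08, 3.33 and 2.67 CPM in Fadu and 3.7, 3.57 and 3.35 CPM in Hth83. The other lines therefore held some MITF transcript, and the mean log2 difference of 4.17 ± 0.07 was far smaller than that of SOX10. FOXD3, an early neural crest factor, averaged 13.8 ± 0.772 CPM in A375, against 1.27 ± 0.0556 in Cal27, 1.31 ± 0.309 in Fadu and 0 in Hth83. POU3F2, a POU factor of melanoma and brain also called BRN2, averaged 49.5 ± 1.75 CPM in A375, against 0.21 ± 0.125 in Cal27, 0.339 ± 0.14 in Fadu and 0.0366 ± 0.0634 in Hth83. RXRG, SOX11, LEF1, TBX2, ALX1, DLX1 and PRRX1 were higher too.

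The 3 lower factors are known in the neural crest and squamous epithelium. SOX9, which acts early in the neural crest and in many epithelia, had 0.101, 0.187 and 0.273 CPM in the A375 libraries, against 68.5, 70.4 and 72.8 CPM in Cal27, 20.5, 18.9 and 22.4 CPM in Fadu and 445, 415 and 462 CPM in Hth83. A375 held almost none of it, and the mean log2 difference was -9.13 ± 0.11. TFAP2A, an AP-2 factor of skin and crest, averaged 13.6 ± 0.804 CPM in A375, against 51.9 ± 2.79 in Cal27, 83.7 ± 1.16 in Fadu and 47.3 ± 3.28 in Hth83, a mean log2 difference of -2.31 ± 0.06. SNAI2, a repressor of E-cadherin, averaged 16 ± 0.0512 CPM in A375, against 63.6 ± 2.06 in Cal27, 42.3 ± 0.828 in Fadu and 70 ± 6.66 in Hth83, a mean log2 difference of -2.03 ± 0.06. The AP-2 and SOX families were thus divided between members higher in A375 (TFAP2B, SOX5, SOX8, SOX10, SOX11) and members lower in it (TFAP2A, SOX9, and SOX15 of the squamous list).

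Most receptors and surface proteins of the same lineage were higher as well. Of 28 members 24 were tested, 17 (70.8%) were higher and 1 (4.17%), ALCAM, was lower, with a median log2 difference of 4.91. CSPG4, the melanoma chondroitin sulfate proteoglycan, had 1441, 1432 and 1489 CPM in the A375 libraries, against 1.79, 2.22 and 2.59 CPM in Cal27, 1.39, 0.88 and 1.4 CPM in Fadu and 2.11, 1.56 and 1.07 CPM in Hth83. ERBB3, the neuregulin receptor that partners ERBB2, had 770.3, 744 and 775 CPM in the A375 libraries, against 30, 27.9 and 29.2 CPM in Cal27, 73.7, 75.5 and 72.9 CPM in Fadu and 0.792, 1.21 and 0.939 CPM in Hth83. Both were higher in every A375 library than in any other library, by mean log2 differences of 9.61 ± 0.05 and 5.70 ± 0.03. Such a lack of overlap, with A375 on top, was found at 28.6% of all genes tested. EDNRB, the endothelin receptor of melanocyte precursors, had 153, 164 and 160.4 CPM in the A375 libraries, against 8.18, 9.56 and 7.1 CPM in Cal27, 0 CPM in all 3 Fadu libraries and 0.0528, 0 and 0 CPM in Hth83. Cal27 was its nearest line, and Fadu had no read of it. MCAM, the adhesion molecule CD146 of advanced melanoma, averaged 339.5 ± 4.89 CPM in A375, against 24.9 ± 3.38 in Cal27, 2.79 ± 0.279 in Fadu and 19.5 ± 1.49 in Hth83. EPHA3, an ephrin receptor, averaged 316 ± 0.766 CPM in A375, against 0.976 ± 0.201 in Cal27, 0.356 ± 0.0636 in Fadu and 0.063 ± 0.0566 in Hth83. NGFR, the neurotrophin receptor CD271 used as a neural crest marker, was not among the higher genes, with 4.78 ± 0.662 CPM in A375, against 5.06 ± 0.503 in Cal27, 17.3 ± 1.69 in Fadu and 25.4 ± 0.184 in Hth83. KIT, the stem cell factor receptor of melanocytes, was listed at 0 in all 12 libraries. ALCAM, the cell adhesion molecule CD166, averaged 47.6 ± 2.27 CPM in A375, against 591 ± 20.4 in Cal27, 571 ± 13.1 in Fadu and 420.1 ± 11.5 in Hth83.

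Neural and glial cytoplasmic markers were mixed. Of 18 members 16 were tested, 5 (31.2%) were higher (S100B, NES, NEFL, FABP7 and GFAP) and 2 (12.5%) were lower (MAP2 and BASP1). These shares were 14.3% and 6.15% over all genes tested. The median log2 difference of the list was 1.79. S100B, the calcium-binding protein used to stain melanoma, had 56, 56.2 and 57 CPM in the A375 libraries, against 0 CPM in all 9 other libraries, at least 4833-fold higher in A375. NES, the intermediate filament nestin of neural progenitors, had 319.8, 318 and 315 CPM in the A375 libraries, against 1.36, 2.64 and 1.99 CPM in Cal27, 1.31, 1.15 and 1.46 CPM in Fadu and 0, 0.0549 and 0 CPM in Hth83. FABP7, a fatty acid-binding protein of glia, averaged 4.88 ± 0.503 CPM in A375, against 2 reads over the 9 other libraries. GFAP, the filament of astrocytes, averaged 1.39 ± 0.396 CPM in A375. MAP2, a microtubule protein of neurons, averaged 0.0135 ± 0.0233 CPM in A375, against 7.38 ± 0.182 in Cal27, 5.24 ± 0.657 in Fadu and 0.404 ± 0.137 in Hth83.

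Genes of the pigment machinery did not stand out from all genes tested. Of 27 melanosome and pigment genes 21 were tested, 2 (9.52%) were higher and none was lower (1 without the first A375 library), near the 14.3% and 6.15% of all genes tested, with a median log2 difference of 0.15 (-0.02 with limma on log2(TPM + 1), -0.17 without Cal27) against 0.12 over all genes. DCT, the dopachrome tautomerase, had 2.08, 1.84 and 1.53 CPM in the A375 libraries, against 0.215, 0 and 0 CPM in Cal27, 0.178, 0.0534 and 0.0977 CPM in Fadu and 0.0528, 0.0549 and 0.101 CPM in Hth83. OCA2, the melanosomal channel protein, had 4.65, 4.84 and 5.08 CPM in the A375 libraries, against 0, 0 and 0.0664 CPM in Cal27, 0.119, 0.0534 and 0 CPM in Fadu and 0, 0.0549 and 0 CPM in Hth83. Both were higher in A375 but low in level, and with limma on log2(TPM + 1) without a filter neither was higher by the rule. PMEL, the fibril protein of melanosomes, averaged 1.2 ± 0.0627 CPM in A375, against 2.39 ± 0.139 in Cal27, 4.83 ± 0.537 in Fadu and 1.68 ± 0.173 in Hth83, and its differences from the 3 lines were negative, the smallest being -0.72 ± 0.24 on the log2 scale with Hth83. MLANA, the melanoma antigen MART-1, averaged 0.96 ± 0.117 CPM in A375, against 0.507 ± 0.081 in Cal27, 2.75 ± 0.635 in Fadu and 0.458 ± 0.0872 in Hth83. TYRP1, the tyrosinase-related protein, averaged 0.55 ± 0.305 CPM in A375, against 0.909 ± 0.0762 in Cal27, 15.5 ± 1.22 in Fadu and 0.772 ± 0.269 in Hth83. TYR, whose promoter is shown above, had 6 reads over the 3 A375 libraries and none in the 9 others, too few to be tested. The summed level of the list, 737 to 766 CPM in A375 against 576 to 581 in Cal27, 564 to 586 in Fadu and 581 to 601 in Hth83, included members used by many cells, such as MYO5A and AP3B1 of vesicle transport. GPNMB, a melanosomal glycoprotein, had 149, 155 and 152 CPM in the A375 libraries, against 12.7, 11.9 and 11.9 CPM in Cal27, 134, 134 and 141 CPM in Fadu and 0 CPM in all 3 Hth83 libraries, so that Fadu held about as much as A375.

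The undifferentiated, invasive state of melanoma is known for another set of genes. Of 27 members, all tested, 3 (11.1%) were higher and 5 (18.5%) were lower, against 14.3% and 6.15% of all genes tested. The median log2 difference was -0.66. WNT5A, a non-canonical Wnt ligand, averaged 95.6 ± 5.21 CPM in A375, against 1.21 ± 0.599 in Cal27, 1.09 ± 0.297 in Fadu and 4.94 ± 0.817 in Hth83. PDGFRB, the platelet-derived growth factor receptor beta, averaged 23.3 ± 0.936 CPM in A375, against 3.86 ± 0.123 in Cal27, 0.0731 ± 0.0809 in Fadu and 0 in Hth83. AQP1, a water channel, was the other, but not without the second Hth83 library. The lower members included EGFR, F2RL1, IL6 and BIRC3. AXL, the receptor kinase that defines the state, averaged 211 ± 5.78 CPM in A375, against 712 ± 20.9 in Cal27, 82.8 ± 2.72 in Fadu and 164 ± 8.45 in Hth83. A375 thus lay between Cal27 and the other lines.

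Output and feedback genes of the ERK pathway, the cascade below BRAF, gave more higher than lower members. The same held over all genes set apart, of which 70.0% were higher. Of 23 members, all tested, 7 (30.4%) were higher and 1 (4.35%) was lower, against 14.3% and 6.15% of all genes tested. The median log2 difference was 1.72. Pair by pair, 15 were at least 2-fold above Fadu and 1 below it, against 26.6% and 21.3% of all genes tested. Against Cal27 10 were above and 7 below, beside 30.2% and 20.5% of all genes. Against Hth83 the split was even, with 7 above and 7 below, beside 26.6% and 16.8% of all genes. SPRY4, a sprouty inhibitor of receptor signalling, had 746, 712 and 728 CPM in the A375 libraries, against 32.2, 29.7 and 27.8 CPM in Cal27, 2.11, 1.49 and 0.944 CPM in Fadu and 119, 122 and 124 CPM in Hth83. SPRY2, its relative, had 393, 384 and 382 CPM in the A375 libraries, against 14.1, 15.1 and 16.1 CPM in Cal27, 5.85, 5.6 and 4.92 CPM in Fadu and 85.2, 85.4 and 90.2 CPM in Hth83. Hth83 was the nearest line for both and held more than Cal27 and Fadu. ETV1 and ETV4, ETS factors downstream of ERK, averaged 175 ± 0.648 and 224 ± 5.8 CPM in A375, and SPRED1, EPHA4 and VGF, a secreted neuropeptide precursor, were the others. VGF had 837, 798 and 885 CPM in the A375 libraries, against 3.19, 2.68 and 2.79 CPM in Cal27, 0.356, 0.373 and 0.0651 CPM in Fadu and 3.67, 4.09 and 3.99 CPM in Hth83. DUSP6, the ERK phosphatase most used as a readout, was not set apart, with 205 ± 7.54 CPM in A375, against 58.8 ± 3.56 in Cal27, 12.5 ± 1.83 in Fadu and 219.7 ± 8.23 in Hth83. The lower member was MYC, the growth-promoting transcription factor, with 17.7, 19.1 and 18.3 CPM in the A375 libraries, against 593, 588 and 596 CPM in Cal27, 189.5, 187 and 189 CPM in Fadu and 194, 206 and 204 CPM in Hth83. Every A375 library held less MYC than every other library, as was found at 11.6% of all genes tested, by a mean log2 difference of -4.14 ± 0.04. CCND1, cyclin D1, averaged 398 ± 12.1 CPM in A375, against 434 ± 3.84 in Cal27, 547 ± 7.68 in Fadu and 449 ± 11.3 in Hth83.

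Cancer-testis antigens, germline genes that tumours reactivate, had the greatest share of higher genes among tested members of the 36 lists. Of 30 symbols 29 were found, 20 were tested, 16 (80%) were higher and 1 (5%), DDX43, was lower. The median log2 difference was 8.43, or 6.52 with silent lines set to the floor of 3 counts. Enough counts in 1 line sufficed for a gene to be tested. Of the 29 found, 17 passed 1 CPM in A375, against 5 in Cal27, 3 in Fadu and 1 in Hth83. The share among tested members therefore depends on the filter. MAGEA4, an X-linked antigen, had 695, 699 and 689 CPM in the A375 libraries, against 267, 261 and 265 CPM in Cal27, 218, 216 and 218 CPM in Fadu and 0 CPM in all 3 Hth83 libraries. PRAME, a melanoma antigen and retinoic acid receptor repressor, had 233, 242 and 239 CPM in the A375 libraries, against 8.68, 12.9 and 8.99 CPM in Cal27, 32.5, 31.8 and 34.2 CPM in Fadu and 0 CPM in all 3 Hth83 libraries. Both antigens were also present in the squamous lines and listed at 0 in Hth83. MAGEC2 averaged 128 ± 1.52 CPM in A375, against 0 in Cal27, 0 in Fadu and 1.91 ± 0.252 in Hth83, and PAGE5 and MAGEA10 averaged 83.9 ± 2.9 and 34.8 ± 2.13 CPM in A375 with no read elsewhere. MAGEA3 and MAGEA6 were not apart, with 105 ± 2.68 CPM of MAGEA3 in A375 against 134 ± 4.11 CPM in Cal27, and 67.2 ± 1.07 CPM of MAGEA6 in A375 against 126 ± 7.47 CPM in Cal27. MAGEA12 (75.3 ± 3.78 CPM in A375), PAGE2 (27.4 ± 0.737 CPM) and CSAG1 (23.1 ± 0.795 CPM) were near 0 in the other lines. Genes of these families have near-identical copies, and counts may have been split between them. Of 10 ganglioside enzymes, all tested, 4 (40%) were higher and none was lower, against 14.3% and 6.15% of all genes tested. ST3GAL5, the GM3 synthase, averaged 52.4 ± 2.44 CPM in A375, against 1.36 ± 0.491 in Cal27, 1.9 ± 0.662 in Fadu and 5.96 ± 1.05 in Hth83. ST8SIA1, the GD3 synthase, averaged 2.42 ± 0.472 CPM in A375, against 0.301 ± 0.0607 in Cal27, 0.952 ± 0.401 in Fadu and 0.736 ± 0.246 in Hth83. Without the first Fadu library ST8SIA1 was no longer higher by the rule. ST8SIA5, another sialyltransferase, averaged 13.3 ± 2.17 CPM in A375, against 0.0232 ± 0.0401 in Cal27, 0.211 ± 0.0715 in Fadu and 0 in Hth83. ST3GAL2 averaged 71.8 ± 0.951 CPM in A375, against 22.9 ± 2.61 in Cal27, 13.2 ± 1.2 in Fadu and 29.9 ± 2.15 in Hth83, and it was no longer higher by the rule without the first Hth83 library.

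**Figure D2:**
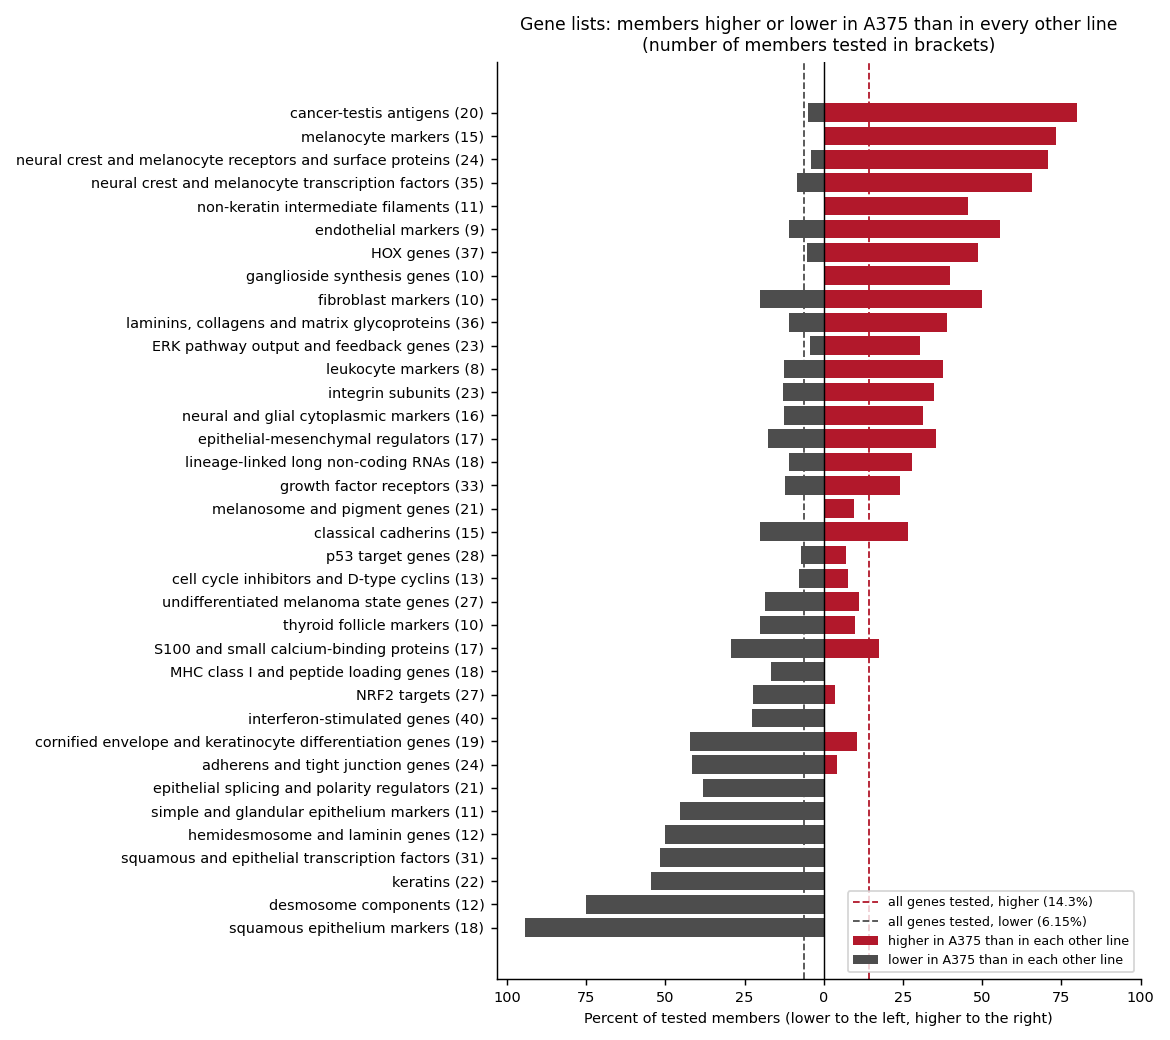
Percent of the tested members of each gene list that were higher (to the right) or lower (to the left) in untreated A375 than in each of the 3 other lines, with dashed lines at the 14.3% and 6.15% of all genes tested. The 16 higher of 20 cancer-testis antigens and the 17 lower of 18 squamous markers are at the ends.

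The transcription factors at the top of the squamous programme were lower in A375 or did not separate it. Of 34 squamous and epithelial transcription factors 31 were tested, none was higher and 16 (51.6%) were lower, with a median log2 difference of -3.76. TP63, the factor of the basal layer (chr3:189631416-189897279, plus strand), had 0.0404, 0 and 0 CPM in the A375 libraries, against 329, 312 and 354 CPM in Cal27, 426, 431 and 446 CPM in Fadu and 389.9, 391 and 368 CPM in Hth83. The other 3 lines lay between 312 and 446 CPM, and A375 held 2 reads in all, a ratio of the other lines to A375 of 24160 with a 95% counting interval of 6688 to 199490. Against Cal27, its nearest line, edgeR's quasi-likelihood test gave TP63 an adjusted p of 8.6e-47. SOX15, a SOX factor of stratified epithelium, had 1.29, 0.749 and 1.43 CPM in the A375 libraries, against 125, 126 and 137 CPM in Cal27, 68.9, 67.8 and 72.9 CPM in Fadu and 79, 76.7 and 85.5 CPM in Hth83. PITX1, a homeobox factor of mouth and hindlimb, averaged 0.488 ± 0.143 CPM in A375, against 107 ± 4.85 in Cal27, 81 ± 1.59 in Fadu and 105 ± 3.39 in Hth83. TRIM29 averaged 0.0477 ± 0.0424 CPM in A375, against 51.5 ± 1.89 in Cal27, 226 ± 7.03 in Fadu and 72.3 ± 2.87 in Hth83. BNC1, basonuclin of basal keratinocytes, averaged 4.35 ± 1.05 CPM in A375, against 78.3 ± 4.17 in Cal27, 69 ± 3.4 in Fadu and 164 ± 6.94 in Hth83. KLF5, a factor of proliferating epithelium, averaged 54.3 ± 2.81 CPM in A375, against 192 ± 4.08 in Cal27, 273 ± 2.48 in Fadu and 433 ± 12.6 in Hth83 and was thus still present in A375. EHF and ELF3, epithelial ETS factors, were lower as well but varied widely among the other lines, and EHF averaged 0.27 ± 0.0459 CPM in A375, against 1423 ± 64.1 in Cal27, 126 ± 0.878 in Fadu and 2.5 ± 0.264 in Hth83.

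Some squamous factors did not separate A375. TFAP2C averaged 131 ± 3.59 CPM in A375, against 15.4 ± 1.38 in Cal27, 34.5 ± 0.879 in Fadu and 138 ± 3.82 in Hth83. RIPK4, a kinase of keratinocyte differentiation, averaged 52 ± 1.81 CPM in A375, against 36 ± 1.01 in Cal27, 62.2 ± 0.937 in Fadu and 43.1 ± 5.4 in Hth83. SOX2, a factor often amplified in squamous cancers, averaged 10.1 ± 0.224 CPM in A375, against 0.0915 ± 0.0521 in Cal27, 11.7 ± 1.44 in Fadu and 1.81 ± 0.41 in Hth83, so that A375 was close to Fadu. GRHL2 and OVOL1, which hold cells in the epithelial state, were near 0 in A375 and also in Hth83, with 48.1 ± 0.703 CPM of GRHL2 in Cal27 and 154 ± 4.67 CPM in Fadu.

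A375 and Hth83 also lay together for many epithelial splicing and polarity regulators. Of 21 members, all tested, 8 (38.1%) were lower in A375 than in each line and none was higher, while 11 were lower than Cal27 and Fadu but not than Hth83, against 5.51% of all genes tested. ESRP1, an epithelial splicing factor, had 0.505, 0.312 and 0.545 CPM in the A375 libraries, against 207, 203 and 197 CPM in Cal27, 281, 284 and 286 CPM in Fadu and 0.766, 0.851 and 0.47 CPM in Hth83. ESRP2, its paralogue, had 0.848, 0.531 and 0.511 CPM in the A375 libraries, against 78.5, 78.4 and 75.9 CPM in Cal27, 65, 61.9 and 66 CPM in Fadu and 0.37, 0.521 and 0.101 CPM in Hth83. Hth83 thus lay at the level of A375 for both, far below the squamous lines. RAB25, a GTPase of apical recycling, and AP1M2, an adaptor of basolateral sorting, were likewise listed at 0 in Hth83, with 0.0322 ± 0.0313 and 0.838 ± 0.237 CPM in A375. MYO5B, a myosin of vesicle recycling, and PARD6B, of the apical polarity complex, averaged 0.853 ± 0.1 and 4.41 ± 0.457 CPM in A375, against 44.8 ± 1.31 and 18.8 ± 1.77 CPM in Hth83. The 8 lower members also included ARHGEF16 (0.0926 ± 0.0802 CPM in A375, against 45.8 ± 2.54 in Cal27, 40.5 ± 2.4 in Fadu and 83.5 ± 6.6 in Hth83), MARVELD2, tricellulin of the corners where cells meet (0.0729 ± 0.126 CPM in A375, against 29.2 ± 2.78 in Cal27, 32.8 ± 0.881 in Fadu and 21.7 ± 2.01 in Hth83), MAL2 of transcytosis (0.751 ± 0.292 CPM in A375, against 201 ± 5.28 in Cal27, 386 ± 8.52 in Fadu and 32.7 ± 3.32 in Hth83) and LLGL2, a basolateral polarity protein (5.83 ± 0.46 CPM in A375, against 37.7 ± 0.948 in Cal27, 59.1 ± 5.22 in Fadu and 25.1 ± 0.507 in Hth83).

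**Figure D3:**
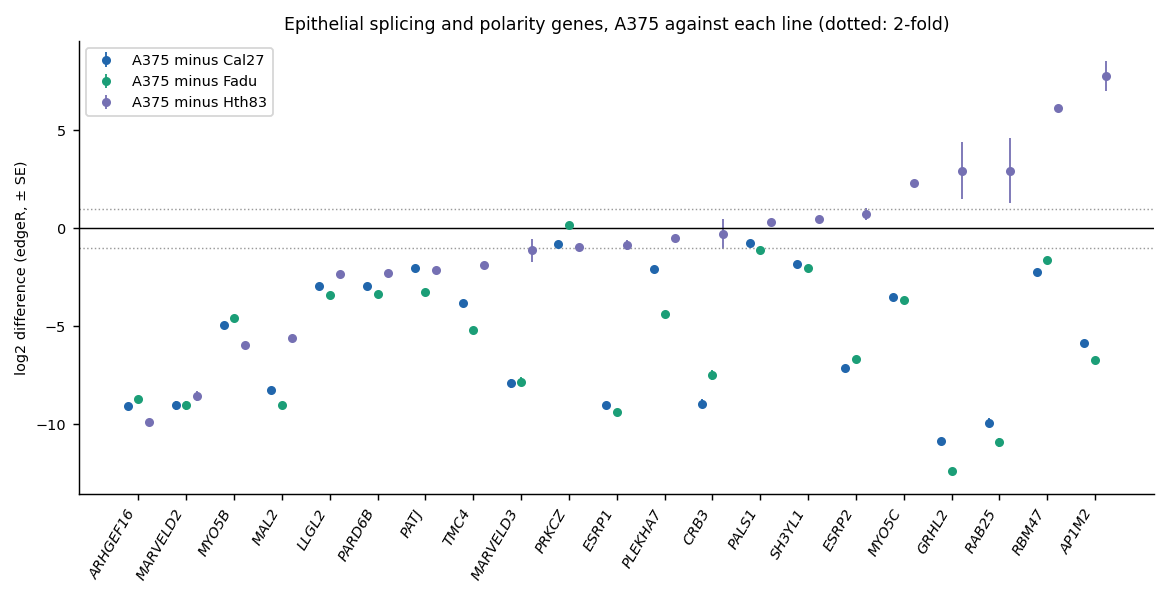
Log2 difference of A375 minus Cal27, minus Fadu and minus Hth83 for the 21 epithelial splicing and polarity genes, with dotted lines at 2-fold. Bars are the approximate SE from the quasi-likelihood F, which understates the counting error where a line had few reads. The Hth83 points of ESRP1, ESRP2, CRB3, RAB25 and MARVELD3 lie near or above 0, far from the Cal27 and Fadu points.

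No keratin was higher in A375. Of 26 keratins 22 were tested and 12 (54.5%) were lower, with a median log2 difference of -3.71. Their sum was 178 to 193 CPM in A375, against 2190 to 2289 in Cal27, 13485 to 13857 in Fadu and 5638 to 6210 in Hth83. KRT5, the basal keratin, had 0.162, 0 and 0 CPM in the A375 libraries, against 261, 262 and 256 CPM in Cal27, 4024, 3922 and 3860 CPM in Fadu and 126, 134 and 130.3 CPM in Hth83. KRT17, a keratin of activated basal cells, had 0.0404, 0 and 0 CPM in the A375 libraries, against 64, 73.6 and 61.6 CPM in Cal27, 3705, 3539 and 3683 CPM in Fadu and 1450, 1397 and 1494 CPM in Hth83. A375 was near 0 for both, whereas Cal27, Fadu and Hth83 differed many-fold among themselves. KRT14, the partner of KRT5, averaged 1.46 ± 0.279 CPM in A375, against 5.04 ± 1.06 in Cal27, 429.9 ± 9.81 in Fadu and 10.1 ± 0.609 in Hth83. KRT6A averaged 0.109 ± 0.0135 CPM in A375, against 29.3 ± 2.18 in Cal27, 154 ± 5.63 in Fadu and 1210 ± 42.5 in Hth83. KRT80 averaged 20.6 ± 1.62 CPM in A375, against 296 ± 3.57 in Cal27, 197 ± 1.66 in Fadu and 195 ± 23.9 in Hth83. KRT6A, KRT6C, KRT14, KRT16 and KRT17 have near-identical copies or pseudogenes, and their counts are uncertain to that extent. KRT8 and KRT18, the keratin pair of simple epithelium, overlap on opposite strands of chromosome 12, so that reads cannot be assigned between them without strand. They had lower but clear levels in A375, at 21.8, 18 and 21.2 CPM for KRT8 against 475, 454 and 478 CPM in Hth83, the nearest line, and at 101, 99 and 94.4 CPM for KRT18 against 279, 254 and 259.6 CPM in Hth83. KRT10, KRT15, KRT19 and KRT81 were not apart from each line.

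The filaments of non-epithelial cells ran the other way. Of 14 members 11 were tested, 5 (45.5%) were higher (NES, NEFL, SYNM, SYNC and GFAP) and none was lower. SYNM, synemin, had 59.7, 66.4 and 63.2 CPM in the A375 libraries, against 6.28, 4.73 and 6.31 CPM in Cal27, 18, 16.7 and 14.9 CPM in Fadu and 12.8, 14.3 and 14.2 CPM in Hth83. NEFL, the light neurofilament chain, averaged 41.6 ± 1.31 CPM in A375, against 0 in Cal27, 9.83 ± 0.407 in Fadu and 0.235 ± 0.176 in Hth83. VIM, vimentin of mesenchymal cells, had 1096, 1090 and 1085 CPM in the A375 libraries, against 0.646, 0.348 and 0.564 CPM in Cal27, 0.119, 0.16 and 0.13 CPM in Fadu and 739.7, 743 and 723 CPM in Hth83. It was near 0 in the squamous lines and abundant in A375 and Hth83, whose log2 difference was 0.34 ± 0.03, under the 2-fold limit. LMNA, LMNB1 and LMNB2, the nuclear lamins, were not apart.

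**Figure D4:**
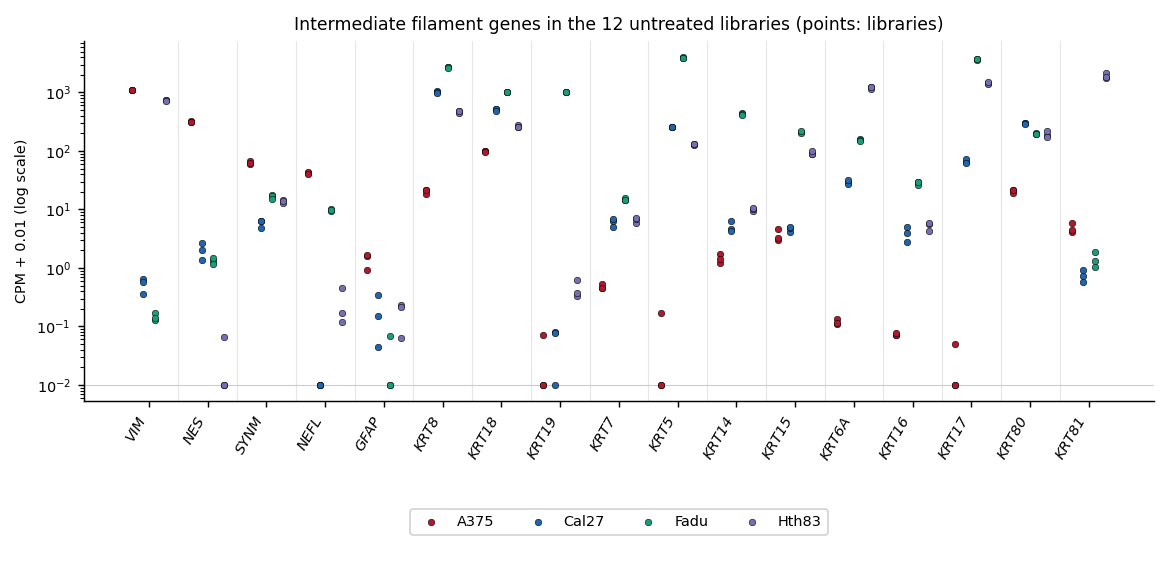
CPM plus 0.01 on a log scale for 5 non-epithelial filament genes and 12 keratins, 1 point per untreated library of A375, Cal27, Fadu and Hth83. VIM averages 1090 ± 5.73 CPM in A375 and 735 ± 10.6 CPM in Hth83 and below 1 CPM in Cal27 and Fadu, while KRT5 and KRT17 are near 0 in A375 alone.

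Most desmosome genes and many genes of other epithelial junctions were lower. Of 12 tested desmosome components, 14 in the list, 9 (75%) were lower and none was higher, with a median log2 difference of -3.43. PKP1, plakophilin 1 of the desmosomal plaque, had 0, 0 and 0.136 CPM in the A375 libraries, against 1.51, 2.05 and 1.93 CPM in Cal27, 144, 138 and 143 CPM in Fadu and 270.3, 266 and 269 CPM in Hth83. DSG3, the desmoglein of basal layers, had 0 CPM in all 3 A375 libraries, against 77.2, 80 and 79.7 CPM in Cal27, 166, 169 and 175 CPM in Fadu and 4.8, 5.98 and 6.68 CPM in Hth83. DSP, desmoplakin, and JUP, plakoglobin, were lower but present in A375, with 51.6 ± 1.71 and 10.7 ± 1.06 CPM. PKP2 averaged 0.849 ± 0.114 CPM in A375, against 59 ± 0.988 in Cal27, 142 ± 0.77 in Fadu and 70.5 ± 1.75 in Hth83. PKP3, DSC2 and DSC3, plakophilin and desmocollin genes, were lower with 27.8 ± 0.927, 4.84 ± 0.304 and 18.1 ± 0.208 CPM in A375, though DSC3 was not lower by the rule with limma on log2 TPM. DSG2 and PKP4, made in many cell types, did not separate A375. Among 26 adherens and tight junction genes 24 were tested, 10 (41.7%) were lower and 1 (4.17%) was higher. Another 9 were lower than Cal27 and Fadu but not than Hth83, against 5.51% of all genes tested. CDH1, E-cadherin (chr16:68737225-68835548, plus strand), had 0.0202, 0 and 0 CPM in the A375 libraries, against 214, 213 and 237 CPM in Cal27, 358, 361 and 361 CPM in Fadu and 0.106, 0.22 and 0.268 CPM in Hth83. Hth83 was almost without it too, and A375 was lower still, with 1 read in 3 libraries. The adjusted p of edgeR's quasi-likelihood test was 1.01e-05 against Hth83 and 7.6e-46 against Cal27. With limma on log2 TPM, pseudocount 1 or 0.1, CDH1 was no longer lower than each line, and with pseudocount 1 neither was PKP1. CLDN1, claudin 1, had 2.5, 1.47 and 1.74 CPM in the A375 libraries, against 549, 527 and 515 CPM in Cal27, 327, 332 and 327 CPM in Fadu and 706, 665 and 747 CPM in Hth83. EPCAM averaged 0.216 ± 0.0605 CPM in A375, against 334 ± 10 in Cal27, 155 ± 7.73 in Fadu and 62.6 ± 2.02 in Hth83. OCLN, occludin, averaged 0.125 ± 0.0568 CPM in A375, against 27.2 ± 1.48 in Cal27, 31.1 ± 1.05 in Fadu and 28.8 ± 2.69 in Hth83. F11R, the junctional adhesion molecule JAM-A, averaged 7.45 ± 0.984 CPM in A375, against 91.4 ± 3.14 in Cal27, 114 ± 5.62 in Fadu and 121 ± 2.96 in Hth83. ST14, the protease matriptase, averaged 0.0104 ± 0.018 CPM in A375, against 175 ± 5.96 in Cal27, 211 ± 3 in Fadu and 0.0224 ± 0.0387 in Hth83. SPINT1, its inhibitor, averaged 5.56 ± 0.815 CPM in A375, against 251 ± 4.16 in Cal27, 115 ± 1 in Fadu and 0 in Hth83. Both were at or near 0 in Hth83 as well. The higher gene was JAM3, a junctional adhesion molecule, with 59.5 ± 2.38 CPM in A375, against 0.035 ± 0.0359 in Cal27, 0.576 ± 0.198 in Fadu and 0.0366 ± 0.0634 in Hth83.

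Cadherins and the regulators of the epithelial to mesenchymal transition went in both directions. Of 15 tested cadherins, 19 in the list, 4 (26.7%) were higher and 3 (20%) were lower, against 14.3% and 6.15% of all genes tested. CDH2, N-cadherin, had 149, 151 and 155 CPM in the A375 libraries, against 24.8, 23.4 and 26.2 CPM in Cal27, 5.91, 8.78 and 6.48 CPM in Fadu and 40.4, 37.2 and 34.6 CPM in Hth83. It was not absent from the other lines, and Hth83 was nearest, at a log2 difference of 1.79 ± 0.07. CDH19, a cadherin of Schwann cell precursors and melanocytes, had 69, 67 and 67.6 CPM in the A375 libraries, against 0 CPM in all 9 other libraries, at least 5841-fold higher in A375. CDH12 averaged 24.6 ± 1.69 CPM in A375, against 0 in Cal27, 0.0306 ± 0.0327 in Fadu and 0.481 ± 0.148 in Hth83. CDH3, P-cadherin of basal epithelium, had 1.15, 2.09 and 1.6 CPM in the A375 libraries, against 236, 243 and 248 CPM in Cal27, 384, 381 and 385 CPM in Fadu and 234, 233 and 234 CPM in Hth83. Of 17 transition regulators, all tested, 6 (35.3%) were higher and 3 (17.6%) were lower, beside the same 14.3% and 6.15%. ZEB1 had 95, 90.6 and 94.5 CPM in the A375 libraries, against 2.62, 3.27 and 2.89 CPM in Cal27, 0.326, 0.747 and 0.586 CPM in Fadu and 10.8, 10.5 and 11.5 CPM in Hth83. ZEB2 had 55.5, 53.5 and 49.6 CPM in the A375 libraries, against 2.87, 3.86 and 4.31 CPM in Cal27, 0.119, 0.267 and 0.293 CPM in Fadu and 2.51, 1.87 and 1.24 CPM in Hth83. Both repress E-cadherin, and both were higher in each A375 library than in any other, as were 28.6% of all genes tested. SNAI1 averaged 40.5 ± 1.78 CPM in A375, against 3.2 ± 0.323 in Cal27, 1.13 ± 0.242 in Fadu and 1.99 ± 0.324 in Hth83. PRRX1 averaged 229 ± 5.56 CPM in A375, against 0 in Cal27, 0.52 ± 0.174 in Fadu and 0 in Hth83. TWIST1 averaged 28.2 ± 0.476 CPM in A375, against 3.99 ± 0.518 in Cal27, 5.26 ± 1.07 in Fadu and 7.68 ± 0.604 in Hth83. TCF4, the E-protein E2-2, averaged 23.3 ± 1.2 CPM in A375, against 2.61 ± 0.548 in Cal27, 4.05 ± 0.493 in Fadu and 8.43 ± 1.04 in Hth83. SNAI2, described above, was lower, as were SNAI3 and TGFB2. With limma on log2 TPM, pseudocount 1 or 0.1, neither SNAI3 nor TGFB2 was lower than each line, nor was SNAI3 without the first Cal27 library. The family of SNAI repressors was therefore divided between SNAI1, higher in A375, and SNAI2 and SNAI3, lower in it.

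Attachment to the matrix differed by partner. Of 12 genes of hemidesmosomes and of the laminin they bind, all tested, 6 (50%) were lower and none was higher. Over all genes tested 6.15% were lower and 14.3% were higher. ITGB4, the integrin beta chain of hemidesmosomes (chr17:75721328-75757818, plus strand), had 3.72, 3.15 and 3.95 CPM in the A375 libraries, against 724, 728 and 708 CPM in Cal27, 518, 511 and 503 CPM in Fadu and 1981, 2030 and 2119 CPM in Hth83. COL17A1, the transmembrane collagen of the same structure, had 0.222, 0.0624 and 0.204 CPM in the A375 libraries, against 1470, 1510 and 1494 CPM in Cal27, 415, 409 and 404 CPM in Fadu and 146, 151 and 162 CPM in Hth83. Every A375 library was far below every other library for both genes, by mean log2 differences of -8.16 ± 0.05 and -11.53 ± 0.08. A375 lay below all other libraries, by any margin, at 11.6% of all genes tested. LAMB3, a chain of the laminin that hemidesmosomes bind, averaged 23 ± 2.34 CPM in A375, against 2049 ± 102 in Cal27, 330.2 ± 9.91 in Fadu and 1468 ± 50.6 in Hth83. LAMA3 averaged 16.8 ± 1.08 CPM in A375, against 176 ± 8.22 in Cal27, 66.5 ± 3.06 in Fadu and 1678 ± 73 in Hth83. COL7A1, the collagen of anchoring fibrils, averaged 28.4 ± 2.42 CPM in A375, against 81.6 ± 3.11 in Cal27, 284 ± 10.6 in Fadu and 836 ± 43.6 in Hth83. ITGA6, the alpha chain that pairs with ITGB4 but also with ITGB1, was not apart, with 468 ± 12.2 CPM in A375, against 424 ± 20.1 in Cal27, 136 ± 2.86 in Fadu and 1304 ± 24.8 in Hth83, nor was PLEC, plectin.

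Of 23 tested integrin subunits, 25 in the list, 8 (34.8%) were higher and 3 (13%) were lower, against 14.3% and 6.15% of all genes tested. ITGB3, the beta chain of the vitronectin receptor linked to melanoma invasion, had 634, 651 and 655 CPM in the A375 libraries, against 0.0717, 0.278 and 0.763 CPM in Cal27, 0.326, 0.213 and 0 CPM in Fadu and 25.4, 29.1 and 25.6 CPM in Hth83. ITGA1, a collagen-binding chain, averaged 562 ± 18.8 CPM in A375, against 11.6 ± 0.797 in Cal27, 1.59 ± 0.389 in Fadu and 50.7 ± 3.2 in Hth83. ITGA9 averaged 83.6 ± 1.72 CPM in A375, against 0.0116 ± 0.0201 in Cal27, 0.0899 ± 0.0787 in Fadu and 0.197 ± 0.065 in Hth83. ITGA4 averaged 59.9 ± 1 CPM in A375, against 3.2 ± 0.65 in Cal27, 0.0217 ± 0.0376 in Fadu and 0.0183 ± 0.0317 in Hth83. ITGA10, a further collagen-binding chain, averaged 33.2 ± 2.02 CPM in A375, against 0.288 ± 0.22 in Cal27, 1.35 ± 0.165 in Fadu and 0.509 ± 0.243 in Hth83. Of 36 tested laminins, collagens and matrix glycoproteins, 39 in the list, 14 (38.9%) were higher and 4 (11.1%) were lower, beside the same 14.3% and 6.15%. LAMA4, a laminin chain of vessels and nerve, had 588, 606 and 598 CPM in the A375 libraries, against 5.59, 5.01 and 5.84 CPM in Cal27, 0.356, 0.133 and 0.326 CPM in Fadu and 0, 0.0274 and 0 CPM in Hth83. SPARC, a collagen-binding secreted protein, had 2149, 2212 and 2282 CPM in the A375 libraries, against 134, 134 and 138 CPM in Cal27, 0.0594, 0.0534 and 0.13 CPM in Fadu and 294, 315 and 313 CPM in Hth83. COL4A1 and COL4A2, the common basement membrane collagen chains, averaged 637 ± 8.6 and 1195 ± 27.5 CPM in A375, whereas COL4A5, COL4A6 and LAMA5, chains of epithelial basement membrane, were lower. COL4A5 was not lower by the rule with scaling by library size alone or with limma on log2 TPM, nor was COL4A6 with limma on log2(TPM + 1). NID1, nidogen 1, averaged 470 ± 16.6 CPM in A375, against 0.128 ± 0.0572 in Cal27, 11.9 ± 0.541 in Fadu and 1.22 ± 0.519 in Hth83. COL9A3, a collagen of cartilage, averaged 580.1 ± 18.2 CPM in A375, against 18.6 ± 3.44 in Cal27, 2.75 ± 0.274 in Fadu and 0.291 ± 0.0623 in Hth83. COL5A2 averaged 199 ± 5.61 CPM in A375, against 1.78 ± 0.672 in Cal27, 1.97 ± 0.454 in Fadu and 0.726 ± 0.185 in Hth83. COL6A3 averaged 18 ± 1.18 CPM in A375, against 0.148 ± 0.104 in Cal27, 0.0385 ± 0.0129 in Fadu and 0.143 ± 0.126 in Hth83. All 3 of these collagens averaged under 1 CPM in Hth83. FN1, fibronectin, was not apart and averaged 149 ± 4.04 CPM in A375, against 162 ± 10.4 in Cal27, 20.4 ± 0.202 in Fadu and 21657 ± 354 in Hth83. TNC, tenascin C, averaged 1983 ± 10.1 CPM in A375, against 888 ± 53.9 in Cal27, 6.25 ± 0.656 in Fadu and 90.3 ± 16.3 in Hth83.

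Growth factor receptors went in both directions. Of 33 tested, 34 in the list, 8 (24.2%) were higher and 4 (12.1%) were lower, against 14.3% and 6.15% of all genes tested. EGFR, the receptor of epidermal growth factor at chr7:55019021-55211628, plus strand, had 19.8, 20.6 and 20.9 CPM in the A375 libraries, against 1872, 1857 and 2077 CPM in Cal27, 938, 938 and 949 CPM in Fadu and 517, 542 and 521 CPM in Hth83. A375 was lower by a mean log2 difference of -5.79 ± 0.04 and by -4.92 ± 0.04 against Hth83, the nearest line, with an adjusted p of 8.32e-46 in edgeR's quasi-likelihood test. DDR2, a receptor of fibrillar collagen, had 348, 319 and 311 CPM in the A375 libraries, against 1.08, 0.939 and 1.36 CPM in Cal27, 2.05, 1.31 and 1.82 CPM in Fadu and 0.924, 0.768 and 1.27 CPM in Hth83, while DDR1, its epithelial relative, had 98, 100 and 97.6 CPM in the A375 libraries, against 499, 494 and 496 CPM in Cal27, 376, 371 and 365 CPM in Fadu and 604, 632 and 645 CPM in Hth83. The discoidin receptor pair thus went in opposite directions. MST1R, the RON kinase, averaged 0.717 ± 0.193 CPM in A375, against 51.2 ± 3.28 in Cal27, 50 ± 2.48 in Fadu and 117 ± 1.97 in Hth83. EPHA1 averaged 0.248 ± 0.0913 CPM in A375, against 22.1 ± 1.98 in Cal27, 31.6 ± 0.978 in Fadu and 4.84 ± 0.711 in Hth83. PDGFRA averaged 5.47 ± 0.577 CPM in A375 and at most 0.0112 ± 0.0194 CPM in another line. ERBB2, MET and IGF1R did not separate A375.

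Several small calcium-binding proteins and cornified envelope genes were lower in A375. Of 17 tested S100 and related genes, 18 in the list, 3 (17.6%) were higher and 5 (29.4%) were lower, against 14.3% and 6.15% of all genes tested. S100A4, linked to motility, had 95.8, 92.7 and 103 CPM in the A375 libraries, against 2.37, 0.695 and 1.16 CPM in Cal27, 2.67, 2.43 and 1.86 CPM in Fadu and 2.11, 2.28 and 2.21 CPM in Hth83. S100A2, of basal keratinocytes, had 6.56, 5.34 and 5.93 CPM in the A375 libraries, against 406, 419 and 391 CPM in Cal27, 297, 272 and 311 CPM in Fadu and 426, 407 and 418 CPM in Hth83. S100A14 averaged 0.343 ± 0.119 CPM in A375, against 46.8 ± 1.86 in Cal27, 149 ± 3.85 in Fadu and 54.9 ± 4.44 in Hth83. S100A9 averaged 0 CPM in A375, against 13.2 ± 0.193 in Cal27, 25 ± 0.164 in Fadu and 13.2 ± 0.941 in Hth83. Of 19 tested cornified envelope genes, 31 in the list, 8 (42.1%) were lower and 2 (10.5%) were higher. SERPINB5, the serpin maspin, averaged 0 CPM in A375, against 71 ± 2.19 in Cal27, 35.9 ± 1.72 in Fadu and 836 ± 21 in Hth83. PPL and CSTA, periplakin and cystatin A, averaged 0.67 ± 0.313 and 0 CPM in A375 against 13.6 ± 1.77 and 22.2 ± 1.49 CPM in Hth83, the nearest line of each. The 2 higher members go against the list's name: FLG, the filaggrin precursor of skin, had 48.2, 50.9 and 51.4 CPM in the A375 libraries, against 0, 0.139 and 0.133 CPM in Cal27, 11.5, 10.2 and 9.18 CPM in Fadu and 0.422, 0.247 and 0.201 CPM in Hth83. ECM1, an extracellular matrix protein, averaged 35.6 ± 3.13 CPM in A375, against 4.86 ± 0.792 in Cal27, 1.77 ± 0.346 in Fadu and 0.638 ± 0.0573 in Hth83.

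HOX genes, which record position along the body axis, were often higher in A375. Of 37 tested, 39 in the list, 18 (48.6%) were higher and 2 (5.41%) were lower, with a median log2 difference of 3.29, or 2.81 with silent lines at the floor. Hth83 held the fewest: 32 HOX genes passed 1 CPM in A375, against 25 in Cal27, 32 in Fadu and 8 in Hth83. HOXC10 had 38.5, 40 and 39.5 CPM in the A375 libraries, against 9.4, 10.6 and 8.46 CPM in Cal27, 7.95, 9.66 and 7.55 CPM in Fadu and 0 CPM in all 3 Hth83 libraries. HOXB2 had 49, 45.1 and 46.6 CPM in the A375 libraries, against 0.0359, 0.313 and 0.398 CPM in Cal27, 4.54, 4.88 and 5.01 CPM in Fadu and 0 CPM in all 3 Hth83 libraries. HOXA5 averaged 25.3 ± 0.248 CPM in A375, against 4.45 ± 0.457 in Cal27, 9.25 ± 1.56 in Fadu and 0 in Hth83. HOXB13 averaged 18.6 ± 0.691 CPM in A375, against 2.7 ± 0.474 in Cal27, 7.94 ± 0.573 in Fadu and 0 in Hth83. HOXB6, HOXC12 and HOXD13 averaged 20.7 ± 1.28, 12 ± 0.703 and 12.9 ± 0.707 CPM in A375. All 7 were listed at 0 in Hth83 and detected in at least 1 of the squamous lines below the level of A375. HOXD10 and HOXD11 were the exceptions, at 2.54 ± 0.283 and 0.53 ± 0.0566 CPM in A375 against 19.7 ± 1.75 and 10.4 ± 0.762 CPM in Cal27. Neighbouring HOX genes overlap and are transcribed with antisense RNAs, and whether counting used strand is not given in these sources.

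**Figure D5:**
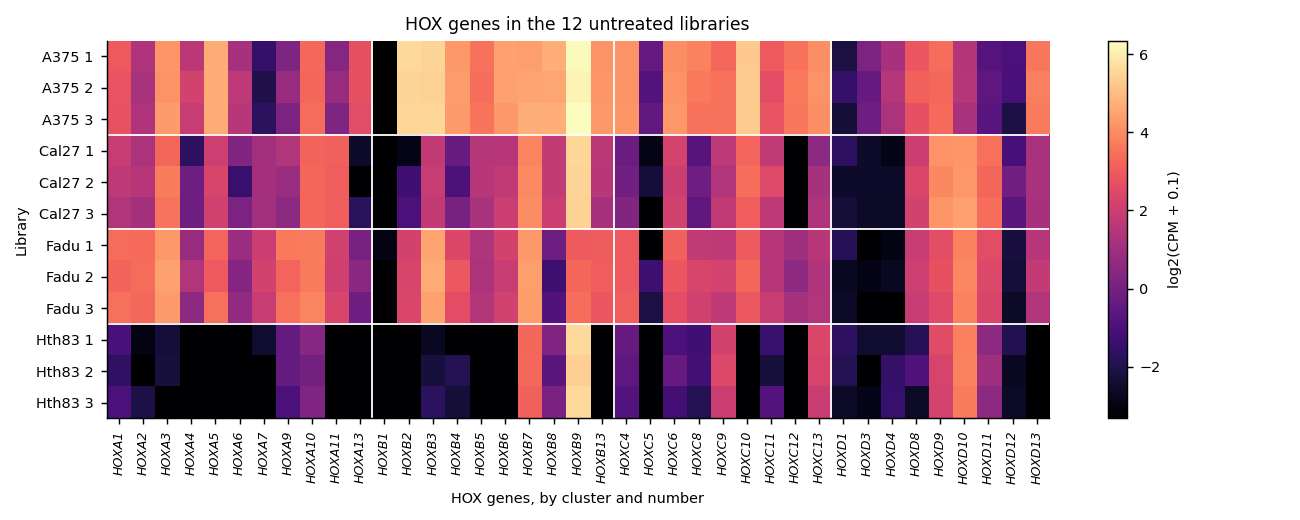
Heat map of log2(CPM + 0.1) for 39 HOX genes in the 12 untreated libraries, with 1 row per library, grouped by line from A375 at the top, and 1 column per gene. The A375 rows are bright over most HOXB and HOXC genes, and the Hth83 rows are dark, at or near the bottom of the scale, for most genes.

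Growth control lists had few members set apart from each line, with lower shares near that of all genes tested. NRF2 targets, which respond to oxidative stress, had more lower than higher members. Of 28 p53 target genes, all tested, 2 (7.14%) were higher and 2 (7.14%) were lower, against 14.3% and 6.15% of all genes tested. Their median log2 difference was 0.15 (-0.12 without Cal27), against 0.12 over all genes. GDF15, a secreted stress hormone, had 8.26, 6.12 and 8.01 CPM in the A375 libraries, against 301, 312 and 288 CPM in Cal27, 96.4, 95.9 and 102 CPM in Fadu and 77.6, 78.6 and 128 CPM in Hth83. PLK2, a polo-like kinase, averaged 27.6 ± 2.42 CPM in A375, against 228 ± 7.52 in Cal27, 62.5 ± 1.49 in Fadu and 71.1 ± 2.32 in Hth83. TP53I3, a quinone oxidoreductase, averaged 22.6 ± 0.059 CPM in A375, against 7.91 ± 1.38 in Cal27, 6.5 ± 0.407 in Fadu and 1.09 ± 0.188 in Hth83. CDKN1A, the cell cycle inhibitor p21, averaged 79.9 ± 3.38 CPM in A375, against 128 ± 5.07 in Cal27, 40.4 ± 0.618 in Fadu and 217 ± 19.7 in Hth83. Of 13 cell cycle inhibitors and D-type cyclins 1 (7.69%) was higher and 1 (7.69%), CCND2, was lower. MTAP, a purine salvage enzyme next to CDKN2A, had 589.9, 573 and 579 CPM in the A375 libraries, against 96.9, 85.3 and 80 CPM in Cal27, 61.5, 60 and 65 CPM in Fadu and 76.2, 78.9 and 76.4 CPM in Hth83. CDKN2A, the inhibitor locus lost in many melanomas, averaged 5.27 ± 0.155 CPM in A375, against 45 ± 1.04 in Cal27, 23.4 ± 2.47 in Fadu and 0 in Hth83. CDKN2B averaged 0 CPM in A375, against 20.8 ± 1.44 in Cal27, 21.7 ± 0.848 in Fadu and 0 in Hth83. Hth83 was thus without reads of either. Of 27 NRF2 targets 1 (3.7%), ABCC2, was higher and 6 (22.2%) were lower, against 14.3% and 6.15% of all genes tested. TXNRD1, thioredoxin reductase 1, had 247, 248 and 240 CPM in the A375 libraries, against 1005, 1004 and 1026 CPM in Cal27, 1264, 1267 and 1239 CPM in Fadu and 570.4, 553 and 545 CPM in Hth83. FTH1, the ferritin heavy chain, averaged 187 ± 5.17 CPM in A375, against 2122 ± 85.7 in Cal27, 2343 ± 23.6 in Fadu and 336 ± 16.4 in Hth83. GCLM, of glutathione synthesis, averaged 27.6 ± 0.9 CPM in A375, against 53.1 ± 1.53 in Cal27, 212 ± 0.858 in Fadu and 70.3 ± 4.52 in Hth83. Neither FTH1 nor GCLM differed by the rule from each line when only library size was used for scaling, or with limma on log2 TPM.

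Interferon-stimulated genes were low in A375 beside Cal27 and Fadu, but not beside Hth83. Of 40 genes, all tested, none was higher and 9 (22.5%) were lower, against 14.3% and 6.15% of all genes tested. A375 was at least 2-fold below Cal27 at 38 of them, below Fadu at 34 and below Hth83 at 9. Over all genes tested these shares were 20.5%, 21.3% and 16.8%. A375 was at least 2-fold above Hth83 at 22 of the 40, above Fadu at 2 and above Cal27 at none. Over all genes tested these shares were 26.6%, 26.6% and 30.2%. Lower than Cal27 and Fadu but not than Hth83 were 25 genes, against 5.51% of all genes tested. The summed level was 994 to 1003 CPM in A375, against 8911 to 9055 in Cal27, 5512 to 5616 in Fadu and 841 to 854 in Hth83. ISG15, a ubiquitin-like protein, had 3.82, 3.22 and 2.86 CPM in the A375 libraries, against 692, 674 and 619 CPM in Cal27, 237, 228 and 229 CPM in Fadu and 6.47, 4.99 and 5.47 CPM in Hth83. MX1, an antiviral GTPase, averaged 9.61 ± 0.634 CPM in A375, against 582 ± 9.25 in Cal27, 140.1 ± 4.49 in Fadu and 1.36 ± 0.208 in Hth83. Both were low in A375 and in Hth83 and high in the squamous lines. IFITM3, a membrane protein against viral entry, had 134, 129 and 134 CPM in the A375 libraries, against 526, 534 and 565 CPM in Cal27, 327, 314 and 315 CPM in Fadu and 326, 309 and 319.6 CPM in Hth83. IFI27 averaged 0.253 ± 0.0547 CPM in A375, against 476 ± 30.2 in Cal27, 627 ± 16.9 in Fadu and 1.37 ± 0.284 in Hth83. IRF7, IFIH1, DDX60 and HERC5 averaged 7.07 ± 1.03, 8.38 ± 1.02, 10.9 ± 1.11 and 12.4 ± 2.47 CPM in A375, against 20.2 ± 0.996, 22.5 ± 0.385, 24.2 ± 2.02 and 21.9 ± 2.04 CPM in Hth83. HERC5 was not lower by the rule with library-size scaling, with limma on log2 TPM or without the third A375 library, nor was DDX60 with limma on log2(TPM + 1). Of 18 tested genes of MHC class I and peptide loading, 19 in the list, 3 (16.7%) were lower and none was higher: TAP2, TAPBP and TAPBPL, which load peptides. TAPBP was not lower by the rule when only library size was used for scaling, and neither TAP2 nor TAPBP was with limma on log2(TPM + 1). B2M, the light chain, averaged 478 ± 6.51 CPM in A375, against 1952 ± 28.3 in Cal27, 1107 ± 1.35 in Fadu and 338 ± 5.24 in Hth83. CD274, the checkpoint ligand PD-L1, had 3.31, 3.25 and 3.41 CPM in the A375 libraries, against 53.7, 53.3 and 54.9 CPM in Cal27, 14.2, 18 and 17.7 CPM in Fadu and 7.23, 7.49 and 6.11 CPM in Hth83, a mean log2 difference of -2.66 ± 0.10. With limma on log2(TPM + 1) CD274 was no longer lower than each line by the rule.

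Markers of other cell types were read as a check on the cultures. The 18 leukocyte markers summed to 17.1 to 19.7 CPM in A375, against 21.9 to 24.7 in Cal27, 10.4 to 13.4 in Fadu and 13.9 to 15.8 in Hth83, with CD3D, CD2 and MS4A1 at 0 in all 12 libraries and PTPRC at most 0.0343 ± 0.0317 CPM on average. Of the 8 tested 3 (37.5%) were higher (LYZ, NKG7 and CD4) and 1 (12.5%), ITGAM, was lower. The 12 endothelial markers summed to 86.7 to 90.2 CPM in A375, against 5.21 to 5.56 in Cal27, 10.7 to 12.1 in Fadu and 7.18 to 8.37 in Hth83, and 5 of the 9 tested were higher, among them FLT1 (55.8 ± 1.74 CPM) and KDR (13.6 ± 1.84 CPM), receptors of vascular growth factor, and ROBO4 (10.4 ± 1.14 CPM), while CDH5, VE-cadherin, was at 0 in A375. The 14 fibroblast markers summed to 60 to 63.9 CPM in A375, against 219 to 225 in Cal27, 258 to 264 in Fadu and 49.6 to 55.6 in Hth83. Of 10 tested 5 were higher (DCN, LUM, PDGFRA, PDGFRB and FAP) and 2 were lower, among them PDPN, podoplanin, with COL1A2 at 0 and COL3A1 at 0.0135 ± 0.0233 CPM in A375. The 16 markers of simple and glandular epithelium gave 5 lower of 11 tested and none higher, and summed to 123 to 130 CPM in A375, against 1867 to 1974 in Cal27, 4917 to 5035 in Fadu and 785 to 827 in Hth83. Higher members were 55.6% of the tested endothelial and 50% of the tested fibroblast markers, and lower members 11.1% and 20%. For simple and glandular epithelium the lower share was 45.5%. Over all genes tested 14.3% were higher and 6.15% were lower. The part of these markers in the differences above was not tested.

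Of 18 tested lineage-linked long non-coding RNAs, 20 in the list and 19 of them found, 5 (27.8%) were higher and 2 (11.1%) were lower. Over all genes tested the shares were 14.3% and 6.15%. SAMMSON, transcribed beside MITF in melanoma, had 9.92, 9.09 and 9.68 CPM in the A375 libraries, against 0 CPM in all 3 Cal27 libraries, 0.208, 0.133 and 0.13 CPM in Fadu and 0 CPM in all 3 Hth83 libraries. MIR100HG, the host of miR-100, averaged 193 ± 4.83 CPM in A375, against 10.5 ± 1.37 in Cal27, 1.87 ± 0.335 in Fadu and 65.2 ± 2.73 in Hth83. MIR99AHG, the host of miR-99a, averaged 19.4 ± 2.22 CPM in A375, against 0.923 ± 0.109 in Cal27, 0.084 ± 0.0731 in Fadu and 0.0088 ± 0.0152 in Hth83. HOTAIR, antisense to the HOXC cluster, and CASC15 were the other 2. The lower pair was MIR205HG, whose microRNA is shown above, and MIR22HG, with 3.81 ± 0.56 CPM in A375, against 32.6 ± 1.28 in Cal27, 22.8 ± 1.61 in Fadu and 36.8 ± 2.04 in Hth83.

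Cal27 was the line nearest to A375 at 1172 (37.2%) of the 3148 higher genes, Fadu at 988 (31.4%) and Hth83 at 988 (31.4%). Among the 1351 lower genes the nearest line was Cal27 at 324 (24%), Fadu at 451 (33.4%) and Hth83 at 576 (42.6%). Protein-coding genes made up 1867 of the higher and 999 of the lower genes, 12.5% and 6.67% of the 14971 tested. The other gene types gave 1281 higher and 352 lower genes, 18.3% and 5.03% of 7004. Of the higher genes 1175 had at least 10 CPM in A375 and 538 had under 1 CPM. Of the lower genes 557 had at least 10 CPM in each of the 3 other lines.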

How the data were processed

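RNA-seq of untreated A375, Cal27, Fadu and Hth83 cells was used, 3 libraries per line, and the 12 plasma-treated libraries were not used. The deposited tables, 1 of counts and 1 of TPM for each line, list 61533 genes. Per the submitters' processing notes the aligner was HISAT2 and the genome GRCh38. The HISAT2 version, how the authors made the counts, their annotation, and their use of strand and intronic reads are facts not given in the sources used here. The TPM values the authors deposited divide each count by 1 length per gene, which equalled the whole gene span with introns (within 0.1%) for 22215 of the 29424 genes that could be compared (75.5%). A level per length was therefore not trusted, levels are given in CPM where TPM had been planned, and TPM entered only the limma alternatives. No mitochondrial gene had a count (37 genes at 0).

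Gene IDs were named from a symbol table (61369 IDs) or GENCODE 29 (149), and 15 stayed without a name. Printed positions come from GENCODE 29 (GRCh38). Counts were fitted with edgeR 4.0.16 (R 4.3.3) on the 12 libraries with 1 coefficient per line, TMM scaling, the filterByExpr filter (10 counts in a library of median size, 15 in total) and robust quasi-likelihood dispersions, and A375 was tested against the mean of the 3 lines and against each line, with Benjamini-Hochberg adjustment over all genes tested. Log2 differences use TMM scaling and CPM does not. Alternatives used DESeq2 1.42.0, limma 3.58.1, other scalings and filters, and libraries or lines left out. The procedure was tested on simulated data. Fold bounds use a floor of 3 counts over the group at 0, and bounds and 95% intervals cover counting error only.

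The comparison and the 36 gene lists (739 symbols, of which BAGE and SLNCR1 were not found) were chosen with earlier results of these data known. The text names the 12 genes furthest out in each direction with at least 50 CPM in the higher group (and no library overlap), up to 6 genes per list with at least 10 CPM in the higher group, and a fixed panel of 57. Other list members were named after their values were seen, to account for each list. A few genes that this rule names are not reported here.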

Additional observations from a re-analysis of the deposited data

How the results depend on the processing

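Of the 294 list or named genes that were higher or lower than each line, none changed the sign of its difference in any of the 28 alternatives that gave it a value. Treating each line as 1 sample gave 0 genes called, 0 higher and 0 lower with edgeR and with limma, with 2073 and 2545 genes at an unadjusted p under 0.05, so that the adjusted p-values above speak for these libraries and not for melanoma lines at large. Testing against a minimum of 2-fold left 7643 genes called against the mean of the lines, 5068 higher and 2575 lower. The 1351 genes lower than each line became 538 with limma on log2(TPM + 1), 817 with log2(TPM + 0.1), and 527 with log2(TPM + 1) and no filter. They became 1931 without Cal27, 1921 without Fadu and 2546 without Hth83, where the rule has 1 condition fewer. Leaving out 1 library gave 16433 to 17534 genes called, 3149 to 3383 higher and 1327 to 1360 lower than each line. With DESeq2 the counts were 17201 called, 3040 higher and 1331 lower, with RLE scaling 17016, 3174 and 1325, with no low-count filter 19798 called and with a stricter one 14928. Scaling by library size alone raised the higher share of called genes to 64.6%, against 56.5%, and of genes set apart to 76.0%, against 70.0%.

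The replicate numbers did not pair the libraries (correlations of deviations from the line means were -0.0152 to 0.021), and a fit with the replicate number as a block called 16784 genes, with 3107 higher and 1330 lower than each line. Of these 294 genes, all with a value kept the contrast call in every setting other than lines as samples. Their set-apart call was lost by 8 with library size alone, 4 with DESeq2, 2 with the replicate block, 41, 16 and 70 with the 3 limma settings, and at most 5 without 1 library. Among genes named in the text, EHF, DDX43, KRT6C, PAX8 and MYO5B lost it with limma on log2(TPM + 1), CDH12, TCF4, MAP2, OCA2, EPHA4, MIR99AHG, SAMMSON, CASC15, DCN, FAP, CD4, ITGAM and ST8SIA1 with that pseudocount and no filter, and KRT6C without A375 library 2 or 3 or Fadu library 2. The cause of these losses was not tested. Besides the melanosome and p53 target lists given above, the list median changed sign for classical cadherins (2.38, against -0.54 and -0.96 with limma at pseudocounts 1 and 0.1), fibroblast markers (from positive to -0.31 with the stricter filter, -0.78 and -0.91 with limma at those pseudocounts), leukocyte markers (0.69, against -0.51 with that filter), growth factor receptors (0.72, against -0.07 without Hth83), cell cycle inhibitors and D-type cyclins (0.046, against -0.16 without Fadu and -0.03 without Hth83) and thyroid markers (-1.31, against 0.66 without Fadu). With each line as 1 sample it also changed sign for the melanosome, growth factor receptor, p53 target, cell cycle and leukocyte lists, to between -0.15 and -0.02. Genes at a few counts per library give differences that depth limits.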

Other observations

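By chromosome, the median log2 difference of A375 minus the mean of the 3 lines was lowest on chromosomes 14, 22 and 6. On chromosome 14 it was -0.64 over 707 tested genes, and it was negative against Cal27 (-0.31), Fadu (-0.95) and Hth83 (-0.45). There 65 genes (9.19%) were higher and 70 (9.90%) were lower than in each line, against 14.3% and 6.15% of all genes tested. On chromosome 22 the median was -0.53 over 535 genes, with 47 (8.79%) higher and 60 (11.2%) lower. On chromosome 6, which holds the MHC genes, it was -0.39 over 1061 genes, with 108 (10.2%) higher and 102 (9.61%) lower. The medians were highest on chromosome 19, at 0.44 over 1388 genes, and on chromosome 1, at 0.36 over 2134 genes, and both were positive against each of the 3 lines. SOX10 on chromosome 22 was therefore among the 47 higher genes of a chromosome whose median was below 0. Copy number was not measured in these libraries, and its part in these medians was not tested.

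Across the genes tested, the line means of A375 had Spearman coefficients of 0.775 with Cal27, 0.781 with Fadu and 0.800 with Hth83, while the pairs of the other 3 lines lay between 0.850 and 0.887. These describe 21975 genes that are not independent of each other. Of the genes set apart, 536 of the 3148 higher ones had 0 to 3 counts over the 9 libraries of the other lines, and 312 of the 1351 lower ones had 0 to 3 counts over the 3 libraries of A375.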
